A study of Mus musculus with 4 samples.

Results

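The type I interferon response genes examined here were 39 interferon-stimulated genes listed by symbol, of which 38 were found among the 32285 genes of the deposited count matrices. Mx1 was not analysed here. UMIs (unique molecular identifiers, each standing for 1 captured RNA molecule) were summed over the cells of each library, and 35 of the 38 genes had enough of them to be tested. Ifit3b, Ifi44 and Oas2 did not.

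The cells were splenic CD8+ T cells of genotype gBT-I.CD45.1 tg, which carry a transgenic T cell receptor for a herpes simplex virus glycoprotein B peptide. All cultures, controls included, were activated with B6 splenocytes pulsed with the gB498-505 peptide and with 6 µg LPS, and were expanded in recombinant human IL-2 at 12.5 U/ml. The control group received PBS and the butyrate group received 0.5 mM sodium butyrate from day 3 to day 5, and on day 6 viable CD8+Vα2+ cells were purified by flow cytometry and made into 10x 3' v3.1 libraries. Each group held 2 libraries, one from mouse 2 (control 1, butyrate 1) and one from mouse 3 (control 2, butyrate 2), all labelled batch 1. The sources used here do not give the age or sex of the mice.

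Type I interferons bind the receptor chains IFNAR1 and IFNAR2, which activate the kinases JAK1 and TYK2. A complex that contains STAT2 and IRF9, called ISGF3, then binds interferon-stimulated response elements (ISREs) in promoters and switches on antiviral genes. The products include sensors of viral nucleic acid, enzymes that degrade or edit RNA, proteins that block translation or trap virions, and the ubiquitin-like modifier ISG15. In T cells the same genes are also known to be set by interferon-γ and by basal signals in the absence of infection. Butyrate is a bacterial fermentation product that inhibits histone deacetylases.

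Library totals ranged from 64388093 to 76522004 UMIs, and 2059 to 2664 cells were kept per library with median depths of 20494 to 24816 UMIs. Libraries shared 1 to 6 kept barcodes in each pair. Levels are given as CPM, the UMI count of a gene scaled to a common library size, for the marker lists without and for single genes with the TMM composition factor. The CD8 T cell markers summed to 9104 to 10950 CPM. Among markers of cells that make or answer interferon strongly, the macrophage genes Adgre1, C1qa, C1qb and C1qc, the dendritic cell gene Clec9a and the plasmacytoid dendritic cell gene Siglech were at 0 in every library. The myeloid list of 12 genes summed to 2.25 and 2.74 CPM in control against 13.6 and 15.8 in butyrate, most of it Cd68. Without Cd68 it summed to 0.43 and 0.51 against 4.85 and 6.17 CPM. Itgam had 8 and 21 against 242 and 274 UMIs, Ly6g 4 and 7 against 51 and 96, and Cd14 9 and 4 against 41 and 49. Lyz2 had 0, 0, 1 and 1 UMI in the order control 1, control 2, butyrate 1, butyrate 2. Of the B cell list of 8 genes, Ighm made up most of 146 and 150 CPM in control against 45.6 and 45.7 in butyrate, while Pax5, a defining B cell factor, was at 0 in every library. The dendritic cell list of 9 genes summed to 36.1 and 31.9 CPM in control against 40.4 and 46.9 in butyrate, most of it H2-Ab1, with H2-Eb1 at 5 and 4 against 111 and 125 UMIs, H2-Aa at 5 and 2 against 48 and 70 and Itgax at 50 and 114 against 179 and 210. The plasmacytoid list of 5 genes summed to 14.5 and 14.6 against 11.8 and 13.6 CPM, most of it Tcf4, and Cox6a2 had 72 and 93 against 3 and 6 UMIs. The NK cell list of 5 genes summed to 67.6 and 81.5 against 91.9 and 110.7 CPM, with Tyrobp at 163 and 145 against 2180 and 2581 UMIs and Klrb1c at 292 and 522 against 908 and 1103, while the NK cell receptor gene Ncr1 had 1, 2, 0 and 0 UMIs. Without cells holding a UMI of any of 17 defining markers of other cell types, an alternative chosen after seeing the data, 25 members were lower and 4 higher. Over all 13456 genes tested there, 4815 were lower and 4858 higher. The 17 defining markers hold neither Cd68, Itgam, Ly6g and Cd14 nor any of the dendritic, plasmacytoid or NK cell genes whose UMIs differed between the groups above. The part of all those genes in the results was not tested by this alternative. A further filter left out cells holding 2 or more UMIs over the B cell, myeloid, dendritic, plasmacytoid and erythroid lists together, and kept 372 to 829 cells per library. With it, 19 of 32 tested members were lower and 5 higher, beside 3114 lower and 3246 higher of 11495 tested genes. The median log2 fold change of the members was then -0.37 against -0.71 over all kept cells.

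Across all kept cells most interferon response genes were lower under butyrate, and a smaller group was higher. Of the 35 tested members, 24 were lower and 4 higher in edgeR's quasi-likelihood test (Benjamini-Hochberg adjusted p under 0.05), and 7 did not pass. Butyrate changed most of the transcriptome, so these counts need their background: 71.8% of 13487 tested genes passed, 35.7% as lower and 36.0% as higher. At a log2 fold change of -1 or below, 11 members passed against 5.74% of all genes, and at 1 or above, 2 members passed against 13.1% of all genes. The median log2 fold change was -0.71 over the 35 members and -0.0079 over all tested genes. In each mouse separately the ratio of butyrate to control was below 1 for 28 members and above 1 for 5, and 2 members went in opposite directions in the mice. The groups did not overlap for 26 members on the lower side (43.3% of all genes) and 5 on the higher side (42.6%). A gene without overlap has the same direction in both mice, so at least these shares of all genes agreed between the mice. Agreement between the mice is therefore not particular to the members.

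**Figure D1:**
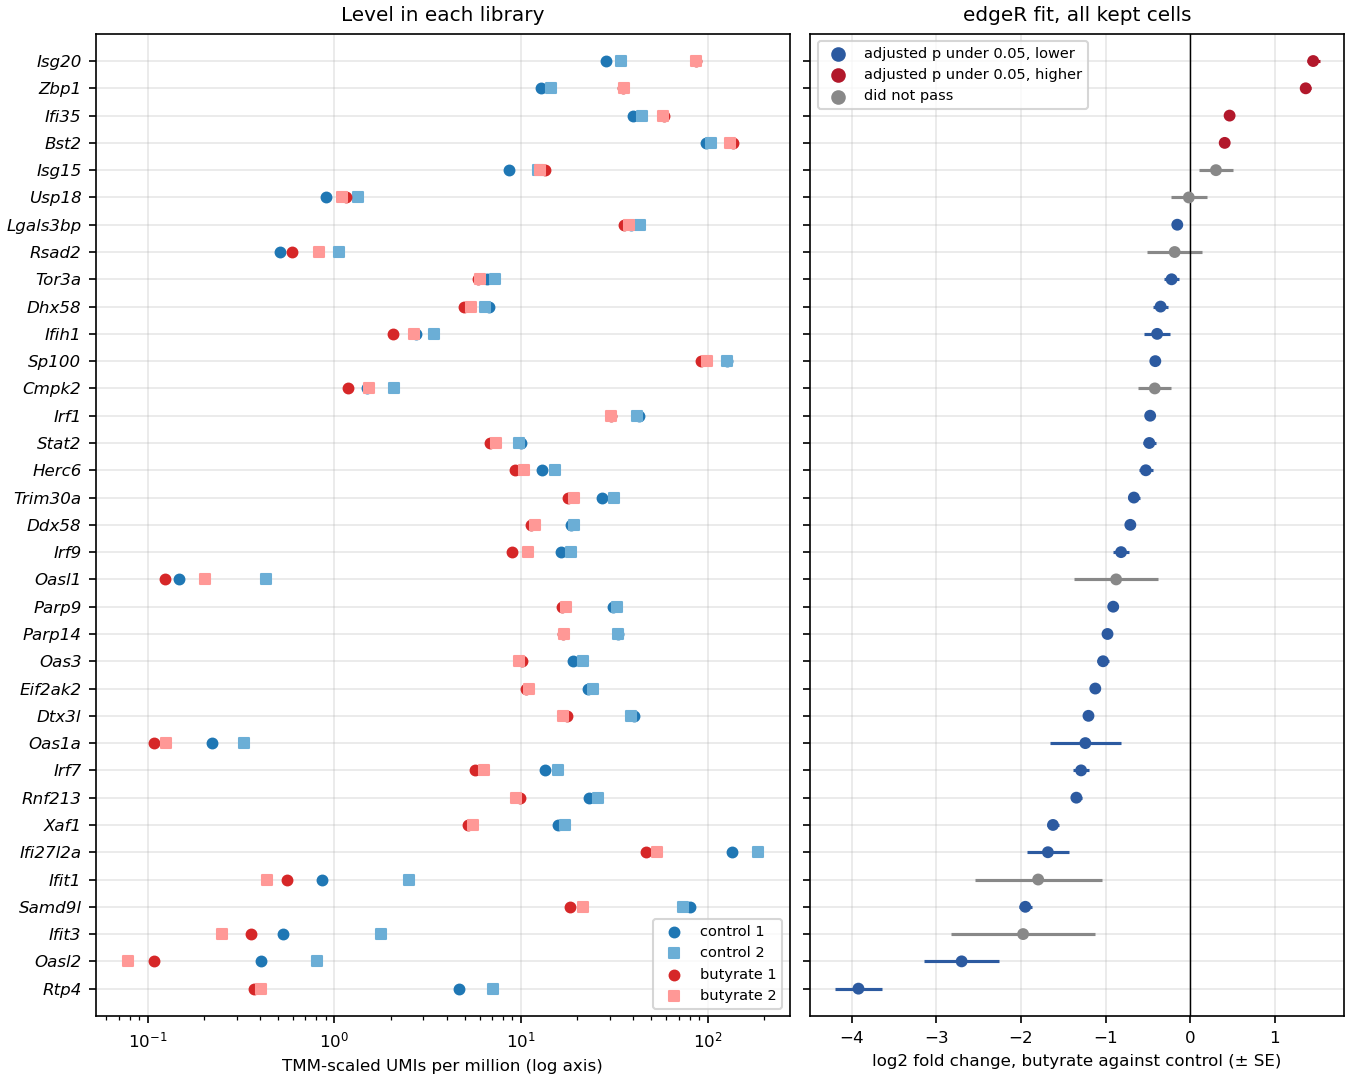
Left, the level of each of the 35 tested members in each of the 4 libraries, in TMM-scaled CPM on a log axis (blue, control; red, butyrate; circles, mouse 2; squares, mouse 3). Right, the fitted log2 fold change with its standard error; 24 members were lower (blue), 4 higher (red) and 7 did not pass (grey), and the widest bars are those of Ifit3 (SE 0.85) and Ifit1 (0.75).

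The promoters of several members are shown because the ISRE is the sequence through which ISGF3 acts. The windows hold the 250 bases before the RefSeq start site (GRCm38.p6), written 5′ to 3′ on the strand of the gene, with matches to the ISRE letters (GAAA, any 2 bases, GAAA) on either strand in capitals. Isg15, Ifit1, Ifit3 and its neighbour copy Ifit3b, and Oas3 have matches and differ in their response, while Samd9l fell strongly and has none.
Isg15, chr4:156200819-156201068, minus strand: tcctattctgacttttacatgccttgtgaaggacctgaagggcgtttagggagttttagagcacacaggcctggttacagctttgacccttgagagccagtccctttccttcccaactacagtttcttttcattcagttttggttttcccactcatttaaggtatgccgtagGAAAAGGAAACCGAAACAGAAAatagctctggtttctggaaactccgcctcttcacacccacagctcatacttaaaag
Ifit1, chr19:34640639-34640888, plus strand: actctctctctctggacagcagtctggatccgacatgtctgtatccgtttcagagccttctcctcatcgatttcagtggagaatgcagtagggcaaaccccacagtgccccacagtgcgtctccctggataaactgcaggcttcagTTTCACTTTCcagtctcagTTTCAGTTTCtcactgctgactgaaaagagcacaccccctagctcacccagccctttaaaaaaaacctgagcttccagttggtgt
Ifit3, chr19:34583279-34583528, plus strand: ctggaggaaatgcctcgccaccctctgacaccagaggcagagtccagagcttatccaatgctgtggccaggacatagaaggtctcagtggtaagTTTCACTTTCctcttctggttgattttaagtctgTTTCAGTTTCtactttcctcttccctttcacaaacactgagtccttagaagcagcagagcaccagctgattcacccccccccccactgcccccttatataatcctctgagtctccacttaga
Ifit3b, chr19:34607707-34607956, plus strand: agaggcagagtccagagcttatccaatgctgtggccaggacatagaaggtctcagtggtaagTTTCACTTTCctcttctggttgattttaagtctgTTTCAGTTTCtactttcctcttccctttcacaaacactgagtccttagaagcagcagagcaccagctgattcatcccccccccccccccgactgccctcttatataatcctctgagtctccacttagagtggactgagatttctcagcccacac
Oas3, chr5:120777660-120777909, minus strand: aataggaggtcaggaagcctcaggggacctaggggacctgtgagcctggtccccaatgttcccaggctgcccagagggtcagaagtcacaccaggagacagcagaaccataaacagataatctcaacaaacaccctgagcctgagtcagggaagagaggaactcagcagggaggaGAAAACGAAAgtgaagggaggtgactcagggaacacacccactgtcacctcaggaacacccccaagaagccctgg
Samd9l, chr6:3399572-3399821, minus strand: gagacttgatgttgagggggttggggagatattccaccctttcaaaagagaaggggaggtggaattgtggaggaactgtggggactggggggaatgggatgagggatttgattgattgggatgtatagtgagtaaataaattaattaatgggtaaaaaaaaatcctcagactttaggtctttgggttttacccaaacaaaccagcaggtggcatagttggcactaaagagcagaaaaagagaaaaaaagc

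Isg15 had 3 overlapping matches, which begin 78, 72 and 66 bases before the start site, and Ifit1 had 2, at 104 and 85 bases. The Ifit3 and Ifit3b promoters each carry a pair of matches with the same letters, at 156 and 122 bases in Ifit3 and at 188 and 154 bases in Ifit3b. In windows of 250 bases before to 50 after the start site, 13 of the 29 members found in the RefSeq table held at least 1 match, against 3.99% of 27025 genes. The letters TTCNNNGAA of the interferon-γ-activated site were in 6 of the 29 members and in 9.55% of all genes. The median log2 fold change was -0.69 over 12 tested members with an ISRE match and -0.82 over 15 without one. Among members that passed as lower, 7 had a match and 11 did not. A match is a description of letters in a window and no evidence of binding here.

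The genes that carry the signal from the receptor to the promoter all fell, and each did so without overlap between the groups. Irf7, the factor that amplifies interferon production, had 13.4 and 15.9 CPM in control against 5.64 and 6.37 in butyrate. Its log2 fold change was -1.29 with an adjusted p of 5.03e-08 (SE 0.09). Irf9, the DNA-binding subunit of ISGF3, went from 16.3 and 18.5 to 8.93 and 10.9 CPM, a log2 fold change of -0.82 (SE 0.10, adjusted p = 5.61e-05). Part of Irf9 lies in the span of Rnf31 on the same strand, and the counts cannot separate reads from the shared bases. Stat2, the other subunit particular to ISGF3, had 9.99 and 9.80 CPM in control against 6.81 and 7.34 in butyrate (log2 fold change -0.48, SE 0.08, adjusted p = 3.52e-05). Irf1, a factor induced by interferon-γ, fell from 42.7 and 41.8 to 30.3 and 30.5 CPM (log2 fold change -0.47, SE 0.05, adjusted p = 3.81e-07). The decrease was 2.45-fold for Irf7 and between 1.39-fold and 1.76-fold for the other members of this group.

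Among the 5 sensors, 4 were lower and 1 was higher. Eif2ak2 encodes PKR, a kinase that stops translation on binding double-stranded RNA. It had 22.9 and 24.4 CPM in control against 10.7 and 11.1 in butyrate, a log2 fold change of -1.12 (SE 0.06, adjusted p = 3.74e-10). Ddx58, which encodes RIG-I, a sensor of viral RNA ends, fell by 0.71 on the log2 scale (SE 0.06), from 18.5 and 19.2 to 11.3 and 11.8 CPM. The other RIG-I-like receptor genes fell less. Ifih1, which encodes MDA5, changed by -0.39 (SE 0.15, adjusted p = 0.0355), and Dhx58, which encodes LGP2, by -0.35 (SE 0.09, adjusted p = 0.00257). The call on Ifih1 was lost without control 2 (-0.21, adjusted p = 0.300) and without butyrate 1 (-0.22, adjusted p = 0.288). It was also lost at a mitochondrial limit of 5% (-0.079, adjusted p = 0.717), without cells holding 2 or more UMIs of other cell types' markers (-0.026, adjusted p = 0.944) and in DESeq2 (-0.37, adjusted p = 0.174). Zbp1 went the other way. It encodes a sensor of Z-form nucleic acid that can trigger necroptosis, and it rose from 12.9 and 14.5 to 35.2 and 35.6 CPM, a log2 fold change of 1.36 (SE 0.06, adjusted p = 5.02e-11). The butyrate libraries of the 2 mice lay closer together for Zbp1 than the control libraries did.

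The 3 members of the PARP and DTX group, which act in ADP-ribosylation and ubiquitination, fell by similar amounts. Dtx3l, an E3 ubiquitin ligase, went from 40.4 and 38.9 to 17.7 and 16.8 CPM (log2 fold change -1.20, SE 0.05, adjusted p = 4.75e-11). Its partner Parp9 changed by -0.91 (SE 0.05) and Parp14, a mono-ADP-ribosyltransferase, by -0.98 (SE 0.05). Dtx3l and Parp9 lie head to head on chromosome 16, with annotated starts 681 bp apart and overlapping gene spans, and Parp14 starts 67607 bp from Dtx3l. The 3 values are therefore those of 1 locus.

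The products of the 2′-5′-oligoadenylate synthetase genes activate RNase L on sensing double-stranded RNA. Among the members of this family, Oas3, Oasl2 and Oas1a were lower, Oasl1 did not pass and Oas2 was too rare to test. Oas1c, a relative outside the members, was higher, with 4.37 and 4.17 CPM in control against 5.67 and 6.56 in butyrate (log2 fold change 0.52, SE 0.10, adjusted p = 0.000261). Oas3 had 19.0 and 21.5 CPM in control against 10.1 and 9.76 in butyrate (log2 fold change -1.03, SE 0.07, adjusted p = 4.45e-09). Oasl2, an oligoadenylate synthetase-like gene, had 22 and 54 UMIs in the control libraries against 7 and 5 in the butyrate libraries, a log2 fold change of -2.70 (SE 0.44, adjusted p = 8.72e-05). Oas1a had 12 and 22 UMIs against 7 and 8. It passed (log2 fold change -1.24, SE 0.42, adjusted p = 0.0149), but not without control 2 (adjusted p = 0.219), butyrate 1 (0.106) or butyrate 2 (0.0704). Oasl1, with 8 and 29 UMIs against 8 and 13, did not pass (log2 fold change -0.88, SE 0.50, adjusted p = 0.134) and overlapped between groups, and it passed without control 1 (-1.40, adjusted p = 0.0140). Oas2 had 4, 3, 2 and 2 UMIs in the order control 1, control 2, butyrate 1, butyrate 2, too few to read. Close copies such as the Oas1 genes can take each other's reads, which was not resolved here.

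The products of the IFIT genes bind viral RNA and block its translation. Those among the members were rare and uneven between the mice. Outside the members, Ifit2 had 271 and 363 UMIs in control against 212 and 191 in butyrate and passed as lower (log2 fold change -0.73, SE 0.11, adjusted p = 1.83e-05). Ifit1bl1, also outside them, passed as lower too (-1.07, SE 0.21, adjusted p = 0.000411). Ifit1 had 47 and 169 UMIs in the control libraries against 36 and 28 in the butyrate libraries, and Ifit3 had 29 and 120 against 23 and 16. Both control libraries were above both butyrate libraries, but control 2 held most of the control UMIs. The log2 fold changes were -1.80 (SE 0.75, adjusted p = 0.129) for Ifit1 and -1.98 (SE 0.85, adjusted p = 0.130) for Ifit3, and neither passed. With the mouse as a block, both passed: -1.73 (adjusted p = 0.0286) for Ifit1 and -1.90 (adjusted p = 0.0188) for Ifit3. The ratio within mouse 2 was -0.63 on the log2 scale for Ifit1 and -0.58 for Ifit3, and within mouse 3 it was -2.52 and -2.84. Without control 2, Ifit1 stood at -0.79 (adjusted p = 0.0280) and Ifit3 at -0.81 (adjusted p = 0.0805). Ifit3b, whose promoter shares the paired matches printed above, had 6 and 16 UMIs in control and 0 in both butyrate libraries. Against a floor of 3 counts over the butyrate group, this is 8.89-fold lower before TMM scaling. That value leaves out the counting error of the control UMIs and any spread between libraries, and reads can be split between Ifit3 and Ifit3b.

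The ISG15 system did not move as a unit. Isg15 itself, the most ISRE-dense promoter of those printed, had 8.57 and 12.4 CPM in control against 13.5 and 12.7 in butyrate. Its log2 fold change of 0.30 (SE 0.21, adjusted p = 0.271) did not pass, although both butyrate libraries were above both controls. It moved with the control library left out: without control 2 it was 0.60 (adjusted p = 1.26e-06), and without control 1 it was 0.07 (adjusted p = 0.464). Usp18, which encodes the protease that removes ISG15 and also restrains the interferon receptor, had 0.900 and 1.34 CPM in control against 1.15 and 1.09 in butyrate. The control values lay on either side of the butyrate values (log2 fold change -0.017, SE 0.21, adjusted p = 0.949). Herc6, the main ligase that attaches ISG15 in mice, fell from 13.0 and 15.2 to 9.28 and 10.4 CPM (log2 fold change -0.53, SE 0.08, adjusted p = 0.000103).

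The largest decrease among the tested members, that of Rtp4, was in the remaining effectors. Rtp4, a chaperone of receptors that also binds viral RNA, had 4.68 and 7.07 CPM in control against 0.373 and 0.406 in butyrate. This is a 15.1-fold decrease (log2 fold change -3.92, SE 0.28, adjusted p = 9.13e-06), and among all 13487 tested genes Rtp4 ranked 12 from the lowest log2 fold change. Its span overlaps Gm45338 on the same strand. Samd9l, a translation inhibitor active against viruses, had 80.5 and 73.4 CPM in control against 18.3 and 21.5 in butyrate (log2 fold change -1.95, SE 0.08, adjusted p = 2.91e-08). Xaf1, which binds inhibitors of apoptosis, went from 15.8 and 17.3 to 5.22 and 5.53 CPM, a log2 fold change of -1.62 (SE 0.08, adjusted p = 7.73e-11). Rnf213, a large E3 ligase, fell from 23.2 and 25.9 to 9.91 and 9.43 CPM (log2 fold change -1.35, SE 0.07, adjusted p = 1.57e-10).

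Ifi27l2a, a small membrane protein gene of the ISG12 family, had 134 and 186 CPM in control against 46.6 and 53.4 in butyrate. The groups were well apart (log2 fold change -1.68, SE 0.25, adjusted p = 0.0229), but the call was lost without butyrate 1 (adjusted p = 0.162) and without butyrate 2 (0.146). Trim30a, a member of the TRIM ligase family, and Sp100, a nuclear body protein gene, fell by 0.67 and 0.41 on the log2 scale (SE 0.07 and 0.05). Tor3a changed by -0.22 and Lgals3bp by -0.15, and both lost the call without control 2 (-0.15, adjusted p = 0.230, and -0.07, adjusted p = 0.292). Without butyrate 1 both lost it too (adjusted p = 0.136 and 0.191), and Tor3a did so without butyrate 2 (adjusted p = 0.0788). Cmpk2, a mitochondrial nucleotide kinase gene, did not pass (log2 fold change -0.42, SE 0.19, adjusted p = 0.0650), but passed with the mouse as a block (-0.40, adjusted p = 0.0305) and without control 1 (-0.63, adjusted p = 0.0101). Rsad2, which encodes viperin, had 28 and 71 UMIs in control against 38 and 53 in butyrate, so the groups overlapped (log2 fold change -0.18, SE 0.32, adjusted p = 0.630). Ifi44 had 6 and 10 UMIs in control and 0 in both butyrate libraries, 6.47-fold lower against the same floor of 3 counts and with the same limits.

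The increases beside Zbp1 were in 3 effectors. Isg20, a 3′-5′ exonuclease that degrades viral RNA, had 28.7 and 34.4 CPM in control against 86.3 and 86.9 in butyrate, a log2 fold change of 1.45 (SE 0.07, adjusted p = 2.25e-07). Bst2, which encodes tetherin, the protein that holds budding virions at the cell surface, rose from 97.8 and 103.9 to 136.2 and 131.3 CPM (log2 fold change 0.41, SE 0.04, adjusted p = 9.03e-07). Ifi35, an adaptor protein gene, rose from 40.01 and 44.3 to 58.6 and 57.9 CPM (log2 fold change 0.47, SE 0.05, adjusted p = 1.3e-06). The fold was 2.74 for Isg20, 1.33 for Bst2 and 1.38 for Ifi35, beside 2.57 for Zbp1. Scaling by library totals alone shifted the median of all genes to -0.21 and raised the lower share of calls from 49.8% to 66.4%, with 25 members lower and 4 higher, and no member changed direction. Bst2 then stood at 0.21 (adjusted p = 0.000804) and Ifi35 at 0.26 (adjusted p = 0.000323).

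Genes upstream of the response were then read from lists of the pathway. Interferon RNA other than Ifng was rare or not detected. Of 20 interferon genes, 17 had no UMI in any library, the type I genes Ifnb1 and Ifna4 among them, and a count of 0 allows up to 3 UMIs in a library (0.0434 to 0.0587 CPM before TMM scaling). Ifnab had 2 or 3 and Ifnz 1 to 6 UMIs per library. Interferon-γ was the exception: Ifng had 21 and 55 UMIs in control against 1512 and 990 in butyrate (log2 fold change 4.96, SE 0.54, adjusted p = 0.0113). The receptor genes fell, 4 of 5 tested passing as lower. Ifnar1 went from 41.1 and 38.3 to 25.2 and 26.1 CPM (log2 fold change -0.63, SE 0.05) and Ifnar2 from 39.95 and 41.9 to 28.8 and 30.6 (-0.46, SE 0.05). Ifngr1, the ligand-binding chain for interferon-γ, changed by -0.58 (SE 0.05) and Il10rb by -0.21, while Ifngr2 did not pass (-0.36, SE 0.23).

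These lists are short, and their counts stand beside the 35.7% of all genes that passed as lower and the 36.0% that passed as higher. Of the 6 kinase and STAT genes, 3 were lower and 1 higher, near the 71.8% that passed in either direction. Jak1, which serves both interferon receptors, did not pass (-0.08, SE 0.04, adjusted p = 0.104). Tyk2, Jak2 and Stat4 changed by -0.26, -0.67 and -0.71, and Stat3 by 0.24. Among 6 negative regulators, 3 rose and 1 fell: Socs1 rose by 0.51, Ptpn1 by 1.10 and Socs3 by 1.64, and Ptpn6, which encodes the phosphatase SHP-1, changed by -0.98. The total called is again near the share over all genes. Of 6 other interferon regulatory factor genes, 4 rose. Among them were Irf8 (1.12), Irf4 (1.21) and Irf5 (0.56), whereas Irf3, which acts below the nucleic acid sensors, did not pass (0.09, SE 0.05, adjusted p = 0.124). Among 11 tested sensing and adaptor genes, 8 fell and 1 rose. The STING gene Tmem173 changed by -1.05, the editing enzyme gene Adar by -0.95, the kinase gene Ikbke by -0.73 and Trim25 by -0.44.

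**Figure D2:**
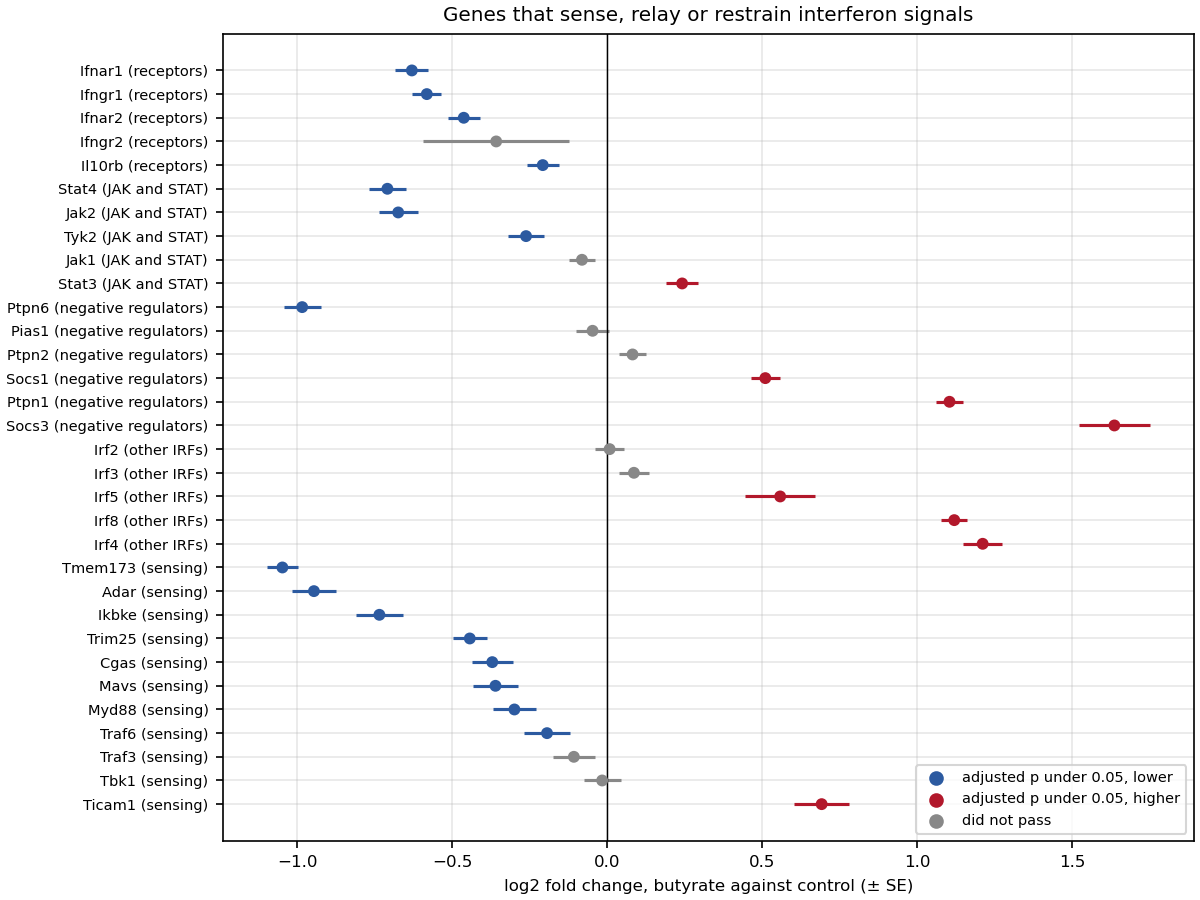
Log2 fold change, butyrate against control, with its standard error, for tested genes of 5 pathway lists over all kept cells. The receptor and sensing genes lie mostly to the left of 0, Jak1 and Irf3 lie near 0, and Socs1, Ptpn1 and Socs3 lie to the right.

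A further 43 tested interferon-induced genes outside the members had 25 lower (35.7% of all genes), 13 higher (36.0%) and a median of -0.21, so the higher count lay near the background. The lower ones included Sp110 (-0.83) and Uba7, which encodes the E1 enzyme for ISG15 (-1.50). The higher ones included the membrane proteins Ifitm1 (0.83) and Ifitm2 (0.76), which block virus entry, with Ifitm3 at 0.02 (adjusted p = 0.863). Several of these share the UMIs of close relatives.

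The next comparison asked in which cells the members moved. Each cell was thinned to 8000 UMIs and given a phase from S and G2M gene lists, or a class by whether an Il7r UMI remained. Il7r encodes the interleukin-7 receptor chain CD127, which marks memory precursors. UMIs were then summed per library and class. G1-called cells made up 14.96 to 15.85% of control cells against 14.7 to 16.3% of butyrate cells, while G2M-called cells were 61.5 to 62.3% of control and 48.4 to 48.7% of butyrate. These classes are cut from scores, and 23, 31, 92 and 105 G1-called cells lay within 0.05 of the cut in the order control 1, control 2, butyrate 1, butyrate 2. The G1-called cells also differed between groups in depth, at 12450 and 11920 median UMIs in control against 18290 and 17990 in butyrate, and in S-list UMIs per cell, with medians of 4 and 4 against 11 and 9. Their part in the results below was not tested.

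In G1-called cells the decrease was widest. Of 30 tested members, 24 were lower (background 29.4%) and 4 higher (30.1%), with a median of -1.06, and 17 fell by at least 1 on the log2 scale (10.1%). In S-called cells 17 of 31 were lower (28.3%) and 4 higher (29.6%), with a median of -0.41. In G2M-called cells 22 of 32 were lower (34.5%) and 4 higher (34.9%), with a median of -0.65. Of 29 members tested in all 3 phases, 16 were lower in each (15.8% of all genes tested in each) and 4 higher in each (17.5%). Of the 29 tested in all 5 classes, 15 were lower in each (15.5%): Ddx58, Dtx3l, Eif2ak2, Ifi27l2a, Irf1, Irf7, Irf9, Oas3, Parp14, Parp9, Rnf213, Rtp4, Samd9l, Trim30a and Xaf1. Bst2, Ifi35, Isg20 and Zbp1 were higher in each (17.4%). Ifit1 and Ifit3, which did not pass over all cells, were lower in G1-called cells (-2.25, adjusted p = 4.34e-05, and -2.74, adjusted p = 2.39e-05). Ifit1 was also lower in S-called cells (-2.05, adjusted p = 0.000477) but did not pass in G2M-called cells (-1.48, adjusted p = 0.298). Ifit3 was too rare to test in S- and G2M-called cells.

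**Figure D3:**
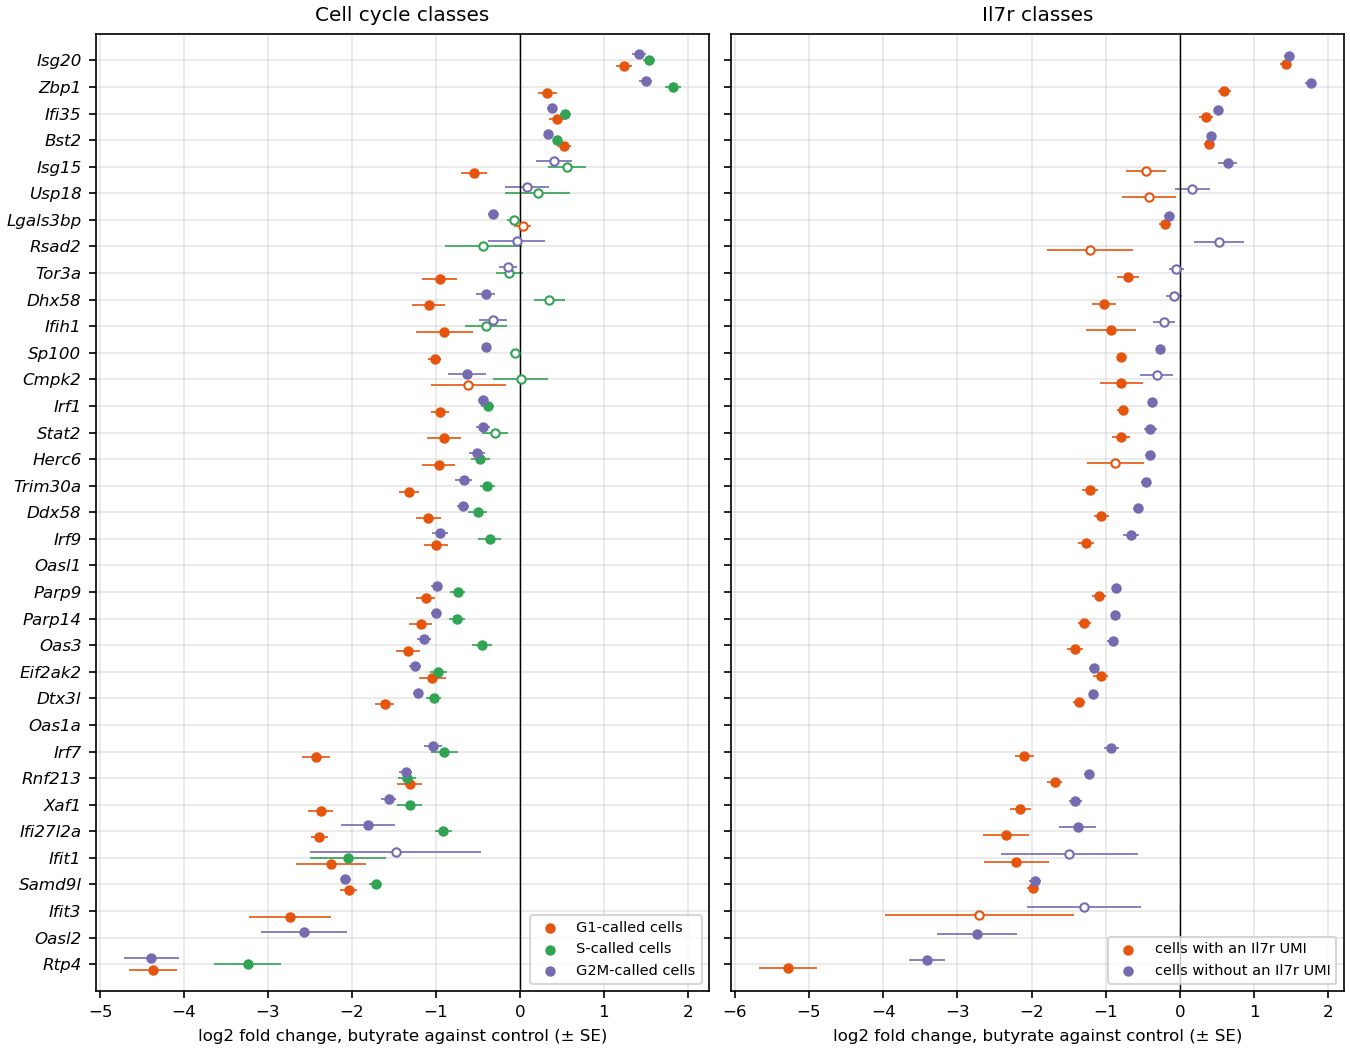
Log2 fold change with its standard error in cells called G1, S or G2M (left) and in cells with or without an Il7r UMI (right); filled points have an adjusted p under 0.05 and open points do not. Irf7, Xaf1, Sp100 and Trim30a lie further left in the G1 and Il7r classes, Zbp1 lies less far right there, and Samd9l and Isg20 each lie at similar values in G1 and G2M and in both Il7r classes.

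A test of the difference between classes found 13 members whose fold differed between G2M-called and G1-called cells, 12 of them more positive in G2M-called cells. The background is 36.4% of genes, 19.3% in the positive and 17.1% in the negative direction. The count of 13 among 35 members is near the background for either direction, and 12 of the 13 lay on the positive side. Irf7 had the largest difference. In G1-called cells it had 32.1 and 38.9 CPM in control against 5.45 and 7.68 in butyrate (log2 fold change -2.43), and in G2M-called cells 12.5 and 15.2 against 6.35 and 7.24 (-1.03). The difference was 1.43 (SE 0.18, edgeR adjusted p = 1.93e-13). The level differed between these phases in control cells. Per 1000 thinned cells, control libraries had 318 and 361 Irf7 UMIs in G1-called and 145 and 153 in G2M-called cells, whereas butyrate libraries had 57.1 and 73.1 against 56.5 and 69.2.

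Zbp1 showed the same control pattern with the opposite response. Control libraries had 305 and 305 Zbp1 UMIs per 1000 G1-called cells and 96.9 and 110 per 1000 G2M-called cells. Butyrate libraries had 342 and 349 against 290 and 262. In S-called cells the control libraries had 110 and 103 and the butyrate libraries 257 and 262. The log2 fold change was 0.33 (adjusted p = 0.0136) in G1-called and 1.5 (adjusted p = 1.09e-10) in G2M-called cells, a difference of 1.20 (SE 0.13, adjusted p = 7.85e-20). Isg15 fell in G1-called cells, from 20.7 and 17.9 to 13.4 and 13.1 CPM (log2 fold change -0.54, SE 0.15, adjusted p = 0.0037). In G2M-called cells its value was 0.41 (adjusted p = 0.170), and the difference of 0.98 passed (SE 0.17, adjusted p = 2.17e-07). Samd9l, with log2 fold changes of -2.04 in G1-called and -2.08 in G2M-called cells, and Isg20, with 1.24 and 1.42, did not pass the test of a difference (adjusted p = 0.981 and 0.0982).

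**Figure D4:**
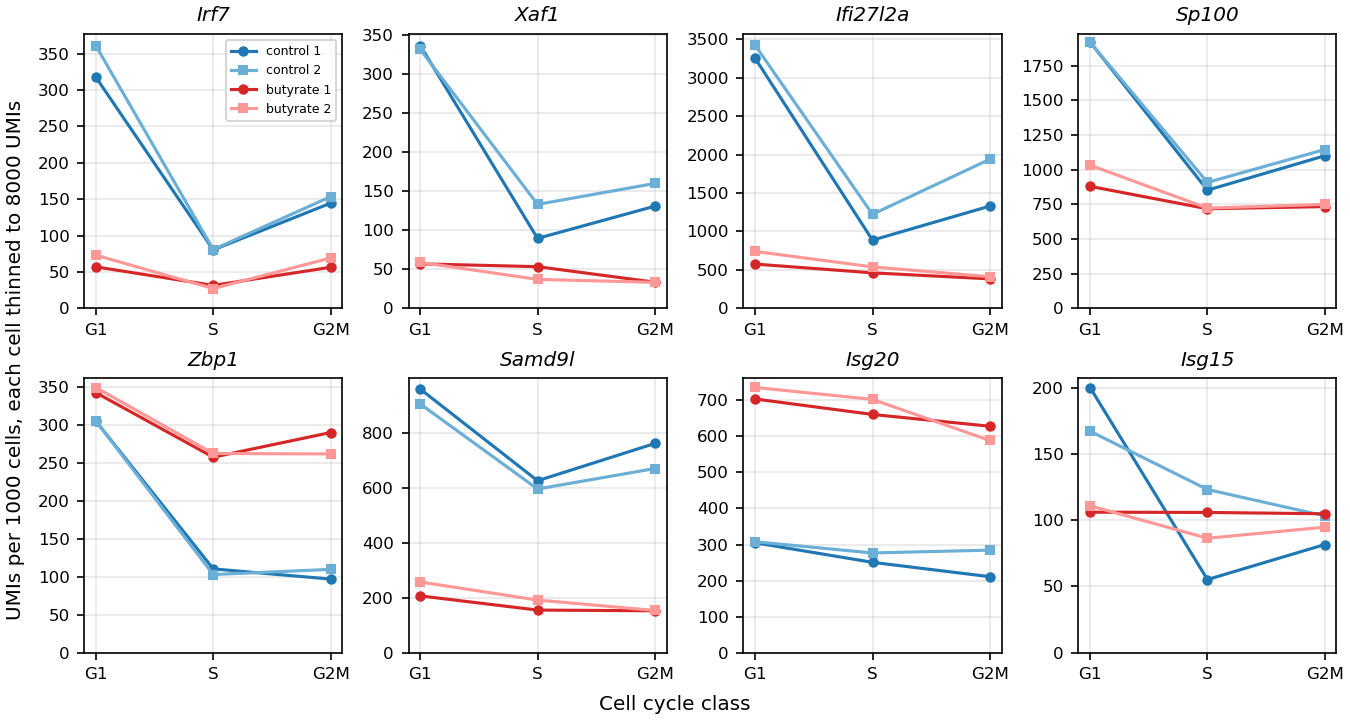
UMIs per 1000 cells of 8 members in the G1-, S- and G2M-called cells of each library, every cell thinned to 8000 UMIs (blue, control; red, butyrate). In control the G1 level of each of the 8 members is the highest of the 3 phases. In butyrate the lines of Irf7, Xaf1, Ifi27l2a, Sp100 and Zbp1 span fewer UMIs than in control. The ratio of G1 to G2M level for Samd9l is 1.36 and 1.67 in butyrate against 1.26 and 1.35 in control.

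The Il7r classes gave a similar split. They held 25.3 to 28.2% of control cells against 29.5 to 30.97% of butyrate cells as Il7r UMI-positive. Their median depth was 17300 and 16560 UMIs in control against 23640 and 22570 in butyrate with an Il7r UMI, and 24560 and 23000 against 25990 and 24570 without. Median G2M-list UMIs were 62.5 and 59 against 39 and 43 with one, and 84 and 81 against 52 and 50 without. The part of these differences in the results below was not tested. In cells with an Il7r UMI, 23 of 32 tested members were lower (31.8%) and 4 higher (32.5%), with a median of -1.06, and 16 fell by at least 1 (7.03%). Without an Il7r UMI, 20 of 33 were lower (35.3%) and 5 higher (34.9%), with a median of -0.46. The difference passed for 18 members, all of them more negative in cells with an Il7r UMI, against 11.4% of all genes in that direction and 24.1% in either. For Ifi27l2a, levels with an Il7r UMI were 246 and 345 CPM in control against 50.6 and 65.9 in butyrate. Without one they were 97.6 and 138 in control against 44.1 and 47.1 in butyrate, a difference of -0.98 in log2 fold change (SE 0.06, adjusted p = 1.94e-15). For Isg15 the log2 fold change was -0.46 with an Il7r UMI (adjusted p = 0.219) and 0.64 without (adjusted p = 0.00191), a difference of -1.11 (SE 0.13, adjusted p = 3.96e-10). It was the only member called in opposite directions in any of the classes, lower in G1-called cells and higher in cells without an Il7r UMI. The 2 splits overlap in the cells they contain, and 10 members differed in both: Ddx58, Dhx58, Irf1, Irf7, Isg15, Sp100, Tor3a, Trim30a, Xaf1 and Zbp1. Over all genes, 36.4% differed between the phases and 24.1% between the Il7r classes. The share that differed in both is not given here, so the count of 10 has no background of its own.

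Cells were finally compared one by one, each thinned to 8000 UMIs. A cell held a median of 7 and 8 member UMIs in control 1 and 2 and of 5 in each butyrate library, from a median of 5 and 6 different members against 4 and 4. The upper tail of member UMIs differed more than the middle. The 99th percentile was 33 and 39.8 member UMIs per cell in control against 16 and 18 in butyrate. By number of different members it was 14 and 17 against 10 and 10. Ifi27l2a alone averaged 1.54 and 1.99 UMIs per cell in control against 0.44 and 0.51 in butyrate, and reached 24 and 47 UMIs in a single control cell. Its part in the tail was not tested. A core list of 16 antiviral genes, 15 of them in the files, was used to find cells with a broad response. At least 4 core genes were detected in 16 of 1988 cells of control 1 (0.805%, exact 95% interval 0.461 to 1.304) and 42 of 2520 cells of control 2 (1.67%, 1.20 to 2.25). In butyrate there were 3 of 2506 cells (0.120%, 0.0247 to 0.349) and 3 of 2596 cells (0.116%, 0.0238 to 0.337). The intervals cover counting error only, and with 2 libraries a group no exact permutation test of these shares can pass. Lowering the limit to 3 core genes gave 2.82 and 3.85% in control and 0.279 and 0.270% in butyrate. With cells thinned to 4000 UMIs the contrast rested on control 2: at least 4 core genes were detected in 2 and 14 cells in control against 1 and 2 cells in butyrate.

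Ifit1, Ifit3, Isg15 and Irf7 are themselves core genes, so the cells chosen by core genes hold more of their UMIs by construction, and the shares that follow only describe these cells. The 42 cells of control 2 held 58 of the 82 thinned Ifit1 UMIs of that library (70.7%), 58.9% of its Ifit3 and 31.8% of its Isg15 UMIs, but 9.24% of its Irf7 and 3.81% of its Bst2 UMIs. In control 1 the 16 such cells held 21.1% of Ifit1 and 10.6% of Isg15 UMIs, and 0 of its 13 Ifit3 UMIs. In butyrate 1 a single cell held 26 of the 264 thinned Isg15 UMIs. Members spread over many cells behaved otherwise: Irf7 was detected in 13.4 and 13.6% of control cells against 4.59 and 5.32% of butyrate cells, and Zbp1 in 11.4 and 11.5% against 22.9 and 22.5%. Without thinning the shares were 26.3 and 28.1% against 12.6 and 13.6% for Irf7, and 24.3 and 25.6% against 48.96 and 49.2% for Zbp1.

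**Figure D5:**
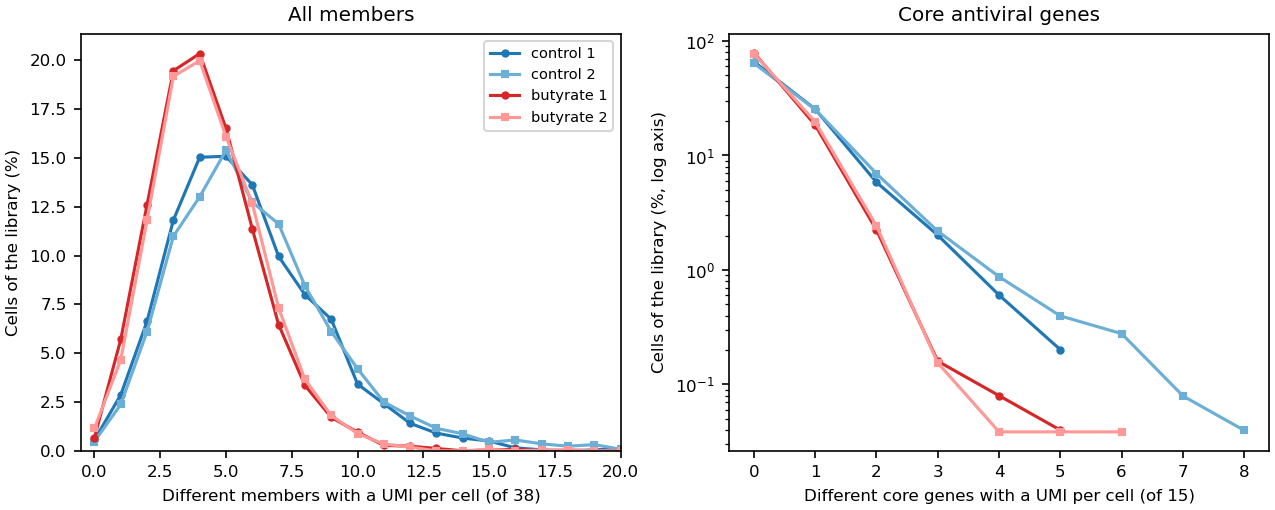
Share of cells (%) by the number of different members (left, of 38) and of different core antiviral genes (right, of 15, log axis) with a UMI, for each library after thinning every cell to 8000 UMIs. The butyrate curves peak at 4 members against 5 in the control libraries and fall off faster, and the 42 cells of control 2 with at least 4 core genes form the longest tail on the right.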

How the data were processed

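The deposited matrices are raw UMI counts of genes by droplet barcodes, unfiltered for cells, per the file headers. The authors used Cell Ranger 4, Seurat 4.3 and the mm10 genome, per the submitters' processing notes. Their annotation release is not given in these sources. Barcodes were called as cells by the OrdMag rule (10% of the 99th percentile of the top 3000 barcodes), with at least 500 genes and under 10% mitochondrial UMIs. No doublets were removed. Counts were summed per library and tested in edgeR 4.0.16 (quasi-likelihood test with robust dispersions, TMM scaling, filterByExpr and a single group term), adjusted over all genes. Each SE was derived from the F statistic and the log2 fold change. Differences between classes were tested with a library term. Phases were scored with scanpy 1.11.5. The libraries are separate cultures of 2 mice, so p-values measure the spread between these 4 libraries. Numbers pair libraries by mouse, per the labels, and deviations within a mouse correlated at 0.059 across genes. Coordinates come from GENCODE M21 (GRCm38), which matched 38 of 38 members, and promoters from RefSeq. On simulated counts, the fit over all cells recovered 97% of 100 changes of 1 and 90% of 100 changes of 0.5 on the log2 scale (13170 genes). In G1-called cells it recovered 87% and 51% (10290 genes). The simulation changed few genes, none of them rare, and gave every gene the same dispersion. It therefore does not cover members with few UMIs or a wide spread, nor a shift of most genes. Named genes were every member, 8 fixed pathway genes and up to 4 per pathway list with the smallest p. Oas1c, Ifit2 and Ifit1bl1 were named in addition, as relatives of members. Members, lists and rules were chosen with earlier results of these data known. Alternatives were scaling, DESeq2 1.42.0, count and cell filters, thinning, mouse blocks and leaving out each library. Some genes that the naming rule covers are not reported here.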

Additional observations from a re-analysis of the deposited data

Results flagged for a closer look

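The members below had a butyrate response that differed between classes of cells, by the test of the difference itself. Between G2M-called and G1-called cells 13 of 35 members passed, a count near the 36.4% of all genes that did. Between the Il7r classes 18 of 35 passed, against 24.1% of all genes. Values are differences of log2 fold changes. Between G2M-called and G1-called cells (G2M minus G1), the largest positive differences were in Irf7 (1.43), Zbp1 (1.20) and Isg15 (0.98), followed by Tor3a (0.85), Xaf1 (0.84), Dhx58 (0.71), Trim30a (0.68) and Sp100 (0.65). Smaller ones were in Irf1 (0.54), Herc6 (0.49), Ddx58 (0.44) and Dtx3l (0.42). Lgals3bp, a secreted glycoprotein gene, had the only negative difference among members that passed, -0.32.

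Between cells with and without an Il7r UMI (with minus without), the signalling genes Irf7 (-1.19), Irf9 (-0.63), Irf1 (-0.41) and Stat2 (-0.41) all had a more negative fold in cells with one. So did the sensors Zbp1 (-1.18), Dhx58 (-0.96) and Ddx58 (-0.50). Among effectors the values were -1.92 for Rtp4, -1.75 for Rsad2, -1.11 for Isg15, -0.98 for Ifi27l2a, -0.76 for Trim30a and -0.76 for Xaf1. They were -0.66 for Tor3a, -0.53 for Sp100, -0.51 for Oas3, -0.48 for Rnf213 and -0.42 for Parp14. Rsad2 did not pass in either class on its own (-1.21 with an Il7r UMI, adjusted p = 0.0998, and 0.53 without, adjusted p = 0.173, edgeR).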

How the results depend on the processing

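The members called over all cells numbered 19 to 29 lower and 4 or 5 higher over all alternatives run, and 21 to 29 lower and 4 or 5 higher when each library was left out. With 1 library left in a group, that library is assumed to vary like the others. With the mouse as a replicate block 27 were lower and 4 higher, beside 4931 lower and 4958 higher of 13487 tested genes. Beyond Ifit1, Ifit3 and Cmpk2 no call over all cells changed with this block. Over all genes, the alternatives that kept every library gave 3114 to 6710 lower and 3246 to 5234 higher of 11477 to 19139 tested genes. Of 513 values for single members under alternatives, 458 kept direction and call, 20 gained and 24 lost the call, and 11 changed direction; the cause was not tested. Usp18 turned to 0.010 in DESeq2, 0.0040 with at least 50 UMIs in 2 libraries, 0.17 at a mitochondrial limit of 5%, 0.0044 with barcodes of at least 1000 UMIs, 0.31 without control 2 and 0.023 without butyrate 2. Rsad2 turned to 0.18 without cells holding 2 marker UMIs, 0.46 without control 2 and 0.041 without butyrate 1. Dhx58 turned to 0.010 without cells holding 2 marker UMIs, and Oasl1 to 0.15 without control 2. Leaving out 1 library at a time gave -1.40 to 0.15 for Oasl1, -0.58 to 0.46 for Rsad2 and -0.26 to 0.31 for Usp18. Leaving out cells with 2 marker UMIs kept only 372 to 829 cells per library. In DESeq2, Ifit1, Ifit3 and Isg15 passed, and Oas1a, Ifih1, Dhx58, Lgals3bp and Tor3a did not. At 4000 UMIs per cell the shares with at least 4 core genes were 0.0971% and 0.532% in control against 0.0391% and 0.0751% in butyrate, and at 8000 UMIs the shares with 3 or more core genes were 2.82% and 3.85% in control. Members under about 1 CPM (Ifit3, Oas1a, Oasl1, Oasl2, Rsad2, Usp18) are limited by depth.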
